A study of Mus musculus with 6 samples.

Results

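The genes described here are 40 mouse genes that cells use to leave G1 and to copy their DNA in S phase. They were chosen by name from a list of helicase, licensing, polymerase, replication fork, nucleotide supply, G1/S switch and S-phase chromatin genes. The rule used no measured value, but the list was drawn up with earlier results of these data known. Each of the 40 symbols matched 1 identifier among the 47729 genes of the count table, and all 40 passed the filter on low counts. Bulk RNA-seq had been made from bone marrow of mice that lack the SNORD113-114 cluster, a run of small nucleolar RNA genes in the imprinted Dlk1-Meg3 region, and from wildtype mice. There were 3 cluster KO and 3 wildtype libraries, numbered here as in their titles. The design names 3 mice of each genotype, but the labels do not say which mouse gave which library, and p-values here reflect only how much the libraries of a genotype vary. The type of deletion allele, the strain, the age and any sorting of the marrow are not stated in the sources used here.

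DNA replication starts with licensing in G1, when Cdc6 and Cdt1 help to load the ring of Mcm2 to Mcm7 onto origins. In S phase, cyclin E with Cdk2 and the kinases that act with them turn the ring into a moving helicase by adding Cdc45 and the GINS complex. Polymerase alpha with primase then starts each strand, replication factor C loads the sliding clamp Pcna, and polymerases delta and epsilon extend the strands. E2F transcription factors are known for switching on many of these genes together. In marrow, dividing progenitors of the red cell, granulocyte and B lineages carry most of this activity. In bulk samples such as these, fewer dividing cells and less RNA of a gene per cell cannot be told apart.

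The libraries held between 17663369 and 23459168 counts on genes, and no library repeated another of its genotype, since chi-square values between them were 12.2 to 71.4 per degree of freedom. The counts gave no check of the deletion. The 23 small nucleolar RNA genes annotated from Rian to Mirg had 1 count in all 6 libraries, and Rian, their host transcript, had 9, 6 and 3 counts in cluster KO marrow and 11, 5 and 38 in wildtype marrow. The share of reads outside genes was 10.1, 8.59 and 7.29% in cluster KO libraries 1, 2 and 3 and 10.03, 10.5 and 11.1% in the wildtype libraries, and the share of gene counts on rRNA genes, mitochondrial ones included, was 0.614, 0.383 and 0.251% against 0.998, 1.08 and 1.44%. Their part in the results below was not tested.

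The genotypes also differed in sex-linked transcripts, although the labels give no sex. Xist, the RNA made from the inactive X chromosome of female cells, was at 1.92, 0.0842 and 1.58 CPM (counts scaled to TMM-adjusted library sizes) in cluster KO marrow and 228, 249 and 248 CPM in wildtype marrow. The Y-linked genes were higher in every cluster KO library, with Ddx3y at 77.8 to 100.3 against 18.2 to 27.9 CPM and Eif2s3y at 108 to 165 against 15.3 to 33.2 CPM. Kdm5d was at 23.3 to 26.2 against 7.24 to 11.1 CPM and Uty at 20.9 to 24.996 against 7.53 to 9.09 CPM. Each wildtype library thus held both Xist and Y-linked transcripts, which goes against reading it as the RNA of 1 mouse. For every fold change below, genotype and sex makeup cannot be told apart, since no library of either genotype had the sex-linked levels of the other.

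Markers of late red cells were low for tissue labelled as bone marrow, with Slc4a1 at 0.186 to 2.10 CPM, Alas2 at 1.04 to 6.02 CPM and the beta globin gene Hbb-bs at 64.1 to 317 CPM over the 6 libraries.

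The replication genes did not move in 1 direction in cluster KO marrow, in a comparison where sex-linked transcripts differed as well. Of the 40, 9 rose and 6 fell (edgeR quasi-likelihood test, Benjamini-Hochberg adjustment over all 15686 genes tested). That is 22.5% of the 40 higher and 37.5% in either direction. Of all genes tested 15.9% were higher and 12.1% were lower, or 27.9% in either direction. The share of members that fell, 6 of 40, was thus near that of all genes. The 9 that rose were Cdc45, Prim1, Rfc2, Rfc3, Rfc5, Rrm2, Tk1, Chaf1b and Slbp. The 6 that fell were Cdt1, Pola1, Pold1, Lig1, Clspn and Uhrf1. The median log2 fold change of the 40 was 0.14, with a range of -0.61 to 1.22, beside a median of 0.00 over all genes tested. The cluster KO libraries lay above all wildtype libraries for 11 members and below all of them for 12, and the genotypes overlapped for 17. Over all genes tested 46.0% had no overlap, 22.9% with cluster KO above and 23.1% with it below.

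**Figure D1:**
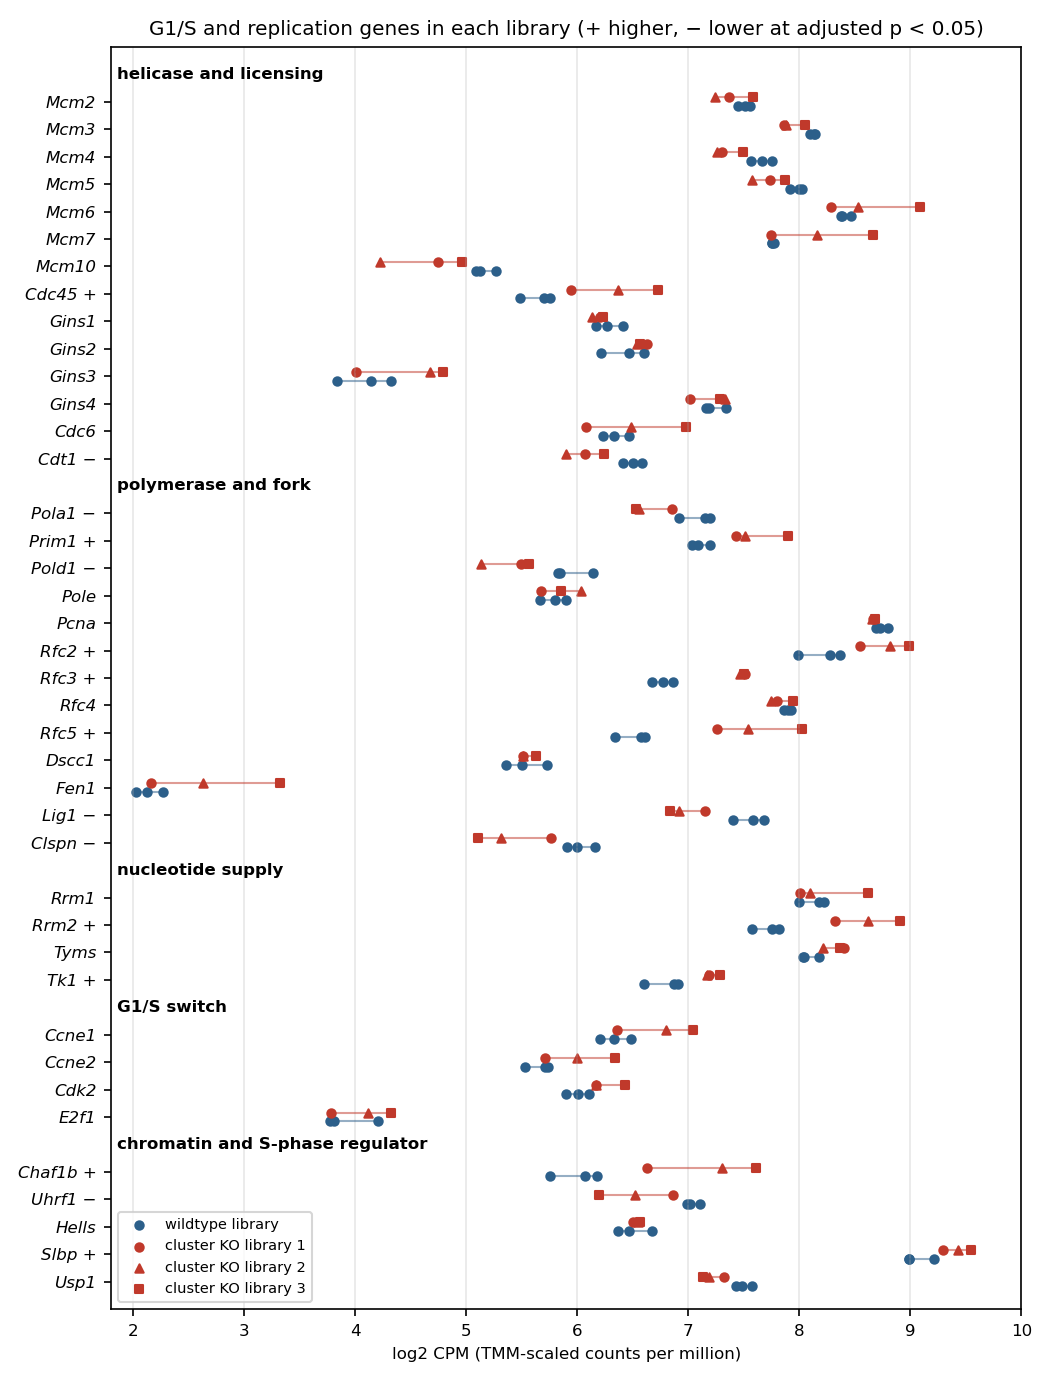
Level of each of the 40 genes in each library as log2 CPM (x axis), grouped by role, with the 3 wildtype libraries in blue and the cluster KO libraries in red, 1 symbol per library; a plus or minus marks genes that passed the test. For 23 of the 40 genes the red and blue points do not overlap, and the square of cluster KO library 3 is the highest red point for 30 of the 40.

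**Figure D2:**
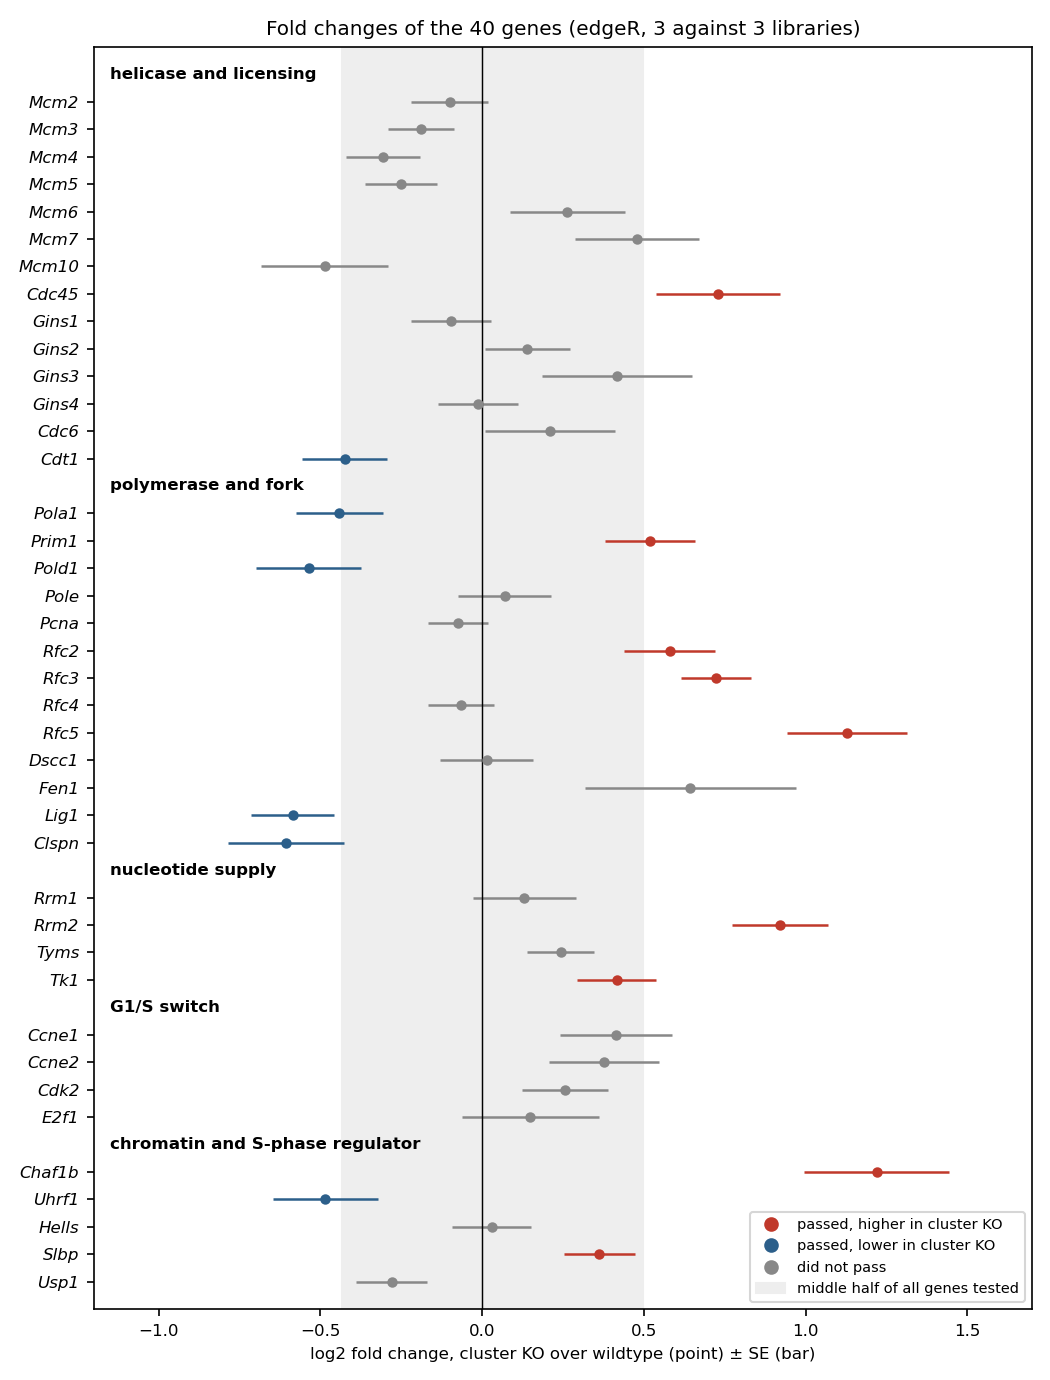
Log2 fold change of cluster KO over wildtype (x axis) with its standard error for each of the 40 genes, from the fit to all 15686 genes; the grey band spans the middle of all genes tested, from the first to the third quartile. The values run from -0.61 for Clspn to 1.22 for Chaf1b, and within each of the helicase, polymerase and chromatin groups some genes lie on each side of 0.

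The promoters of the genes that passed the test are shown because the fallen members shared letters of the E2F motif. RefSeq promoter windows, from 250 bases before to 50 after a gene's start (GRCm38.p6), were at hand for 31 of the 40 members. They were searched on both strands for the 8-letter forms TTTCCCGC, TTTGGCGC, TTTCGCGC and TTTGCCGC. A match was present for 15 of the 31 members (48.4%) and for 704 of all 27025 genes with a window (2.60%). It was present for 6 of the 6 members that fell, for 1 of the 8 with a window that rose and for 8 of the 17 that did not pass. With the first T of each form left off, which gives 7-letter forms that every 8-letter match also holds, the counts were 6 of 6, 4 of 8 and 11 of 17, beside 10.9% of all genes. Lig1 had 3 windows and Uhrf1 had 2, so that they had more letters to match than genes with 1 window. These counts were made after the calls were known, and a match is a run of letters, not a site shown to be bound. The 8-letter matches of the 6 fallen members and of Rfc3 follow on the gene's strand, with 1 match in capitals. Rfc3 holds a further match, on the other strand, in lower case near the end of its stretch.
Cdt1 (chr8:122568035-122568064, plus strand): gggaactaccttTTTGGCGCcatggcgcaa
Pola1 (chrX:93632275-93632304, minus strand): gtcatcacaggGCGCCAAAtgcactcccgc
Pold1 (chr7:44548766-44548795, minus strand): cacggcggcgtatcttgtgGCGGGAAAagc
Lig1 (chr7:13278841-13278870, plus strand): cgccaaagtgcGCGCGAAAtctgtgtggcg
Clspn (chr4:126556990-126557019, plus strand): accgcgtctggGCGCGAAAgctcgaacttc
Uhrf1 (chr17:56304117-56304146, plus strand): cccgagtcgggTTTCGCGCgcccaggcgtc
Rfc3 (chr5:151651200-151651229, minus strand): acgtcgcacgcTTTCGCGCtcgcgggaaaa

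The 250 bases before the start of Rfc3 and of Rrm2, members that rose under every alternative tried, are printed in full to set a promoter with an 8-letter match beside one without. Capitals mark the 8-letter E2F forms and the CCAAT box letters (CCAAT or its reverse complement ATTGG). The Rrm2 stretch does hold a 7-letter E2F form (gcggcaa, on the other strand TTGCCGC), which is left in lower case.
Rfc3 (chr5:151651209-151651458, minus strand): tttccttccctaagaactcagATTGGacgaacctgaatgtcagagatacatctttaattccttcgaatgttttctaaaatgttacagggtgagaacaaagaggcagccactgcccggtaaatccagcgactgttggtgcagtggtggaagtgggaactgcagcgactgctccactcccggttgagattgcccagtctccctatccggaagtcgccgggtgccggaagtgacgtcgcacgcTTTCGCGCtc
Rrm2 (chr12:24708004-24708253, plus strand): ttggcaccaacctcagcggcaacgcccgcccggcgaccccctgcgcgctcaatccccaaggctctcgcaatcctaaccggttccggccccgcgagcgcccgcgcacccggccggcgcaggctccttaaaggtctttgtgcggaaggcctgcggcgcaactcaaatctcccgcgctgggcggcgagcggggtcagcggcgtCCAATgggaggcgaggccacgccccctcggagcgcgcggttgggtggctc
Each of these stretches holds 1 CCAAT box match. CCAAT letters were present in a window of 18 of the 31 members (58.1%) and of 41.1% of all genes, and of 5 of the 8 risen and 3 of the 6 fallen members.

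Among the helicase and licensing genes, 1 of 14 rose, 1 fell and 12 did not pass, with a median log2 fold change of -0.05. The share that passed, 14.3%, was below the 27.9% of all genes tested. The riser was Cdc45, which joins the Mcm ring to make the active helicase. Cdc45 was at 61.7, 82.4 and 106 CPM in cluster KO marrow and 52.1, 53.9 and 44.7 CPM in wildtype marrow. All cluster KO libraries were above the wildtype ones, with library 1 the nearest to them (log2 fold change 0.73, SE 0.19, edgeR adjusted p = 0.0191). The partner complex of Cdc45, GINS, did not pass in any of its 4 genes. Gins1 was at -0.10 (SE 0.12), Gins2 at 0.14 (SE 0.13), Gins3 at 0.42 (SE 0.23) and Gins4 at -0.01 (SE 0.12) as log2 fold changes. The level of Gins2 is uncertain, since 67.3% of its annotated exon bases also lie in exons of Gse1 on the other strand and the libraries carry no strand. Cdc45 missed the threshold without cluster KO 2 (edgeR adjusted p = 0.064), without wildtype 2 (0.0558) and without wildtype 3 (0.0829), in a range over all alternatives of 0.00173 to 0.109. It also missed it with replicate numbers as a block (edgeR adjusted p = 0.0666) and with length and GC trends removed (0.109). Without cluster KO 1 Gins3 passed, at 0.61 (edgeR adjusted p = 0.0352, range 0.0352 to 0.646).

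None of the 6 genes of the Mcm ring passed the test. Their fold changes were negative for Mcm2 to Mcm5 and positive for Mcm6 and Mcm7. Mcm3 was at 233, 236 and 265 CPM in cluster KO marrow and 274, 280 and 282 CPM in wildtype marrow, and Mcm4 at 158, 153 and 180.45 CPM against 189, 203 and 216 CPM. Both lay below wildtype in every cluster KO library, as did Mcm5, but none of the 3 passed the test. Their log2 fold changes were -0.19 (SE 0.10, edgeR adjusted p = 0.193), -0.31 (SE 0.11, adjusted p = 0.0704) and -0.25 (SE 0.11, adjusted p = 0.118). Mcm7, whose introns host the miR-25 and miR-93 genes, was at 215, 285 and 407 CPM in cluster KO marrow and 216, 218 and 217 CPM in wildtype marrow. The wildtype values were nearly equal, and cluster KO library 1 was level with them while library 3 was far above (log2 fold change 0.48, SE 0.19, edgeR adjusted p = 0.0881). Mcm6 also had library 3 far above wildtype and library 1 below it, at 311, 369 and 543 CPM against 334, 332 and 353 CPM (0.26, SE 0.18, edgeR adjusted p = 0.292). Mcm2 overlapped between genotypes, at 165, 151 and 192 CPM against 189, 182 and 174 CPM (-0.10, SE 0.12). Without cluster KO 1 the edgeR adjusted p of Mcm7 was 0.00504 (log2 fold change 0.66) and that of Mcm6 was 0.047 (0.41), and without cluster KO 3 that of Mcm4 was 0.0395 (-0.38). The adjusted p of Mcm7, Mcm6 and Mcm4 over all alternatives ranged over 0.00504 to 0.301, 0.047 to 0.994 and 0.0395 to 0.254. Without cluster KO 3 the log2 fold changes of Mcm6 and Mcm7 were 0.002 and 0.21, so that their rise rested largely on that library.

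As shares of the ring's summed level per transcript length (RPKM, CPM per kilobase of the longest coding transcript), Mcm7 took 19.3, 23.9 and 26.1% in cluster KO marrow and 17.4, 17.2 and 16.8% in wildtype marrow. The share of Mcm6 was 19.0, 21.01 and 23.7% against 18.2, 17.8 and 18.6%. The shares of Mcm3, Mcm4 and Mcm5 were lower in every cluster KO library, with that of Mcm5 at 16.7, 14.0 and 13.2% against 17.0, 17.6 and 17.7%. The exact permutation test gave two-sided p = 0.1 for each of these 5 shares, the smallest that 3 against 3 libraries allow, and p = 0.3 for Mcm2. Larger shares of some genes lower the shares of the others, so these p-values are not separate tests. The summed level of the ring did not separate the genotypes, at 435 ± 79.7 RPKM (SD, n = 3) against 428 ± 8.09 RPKM (exact permutation p = 1.0). These shares were computed after the fold changes were known.

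**Figure D3:**
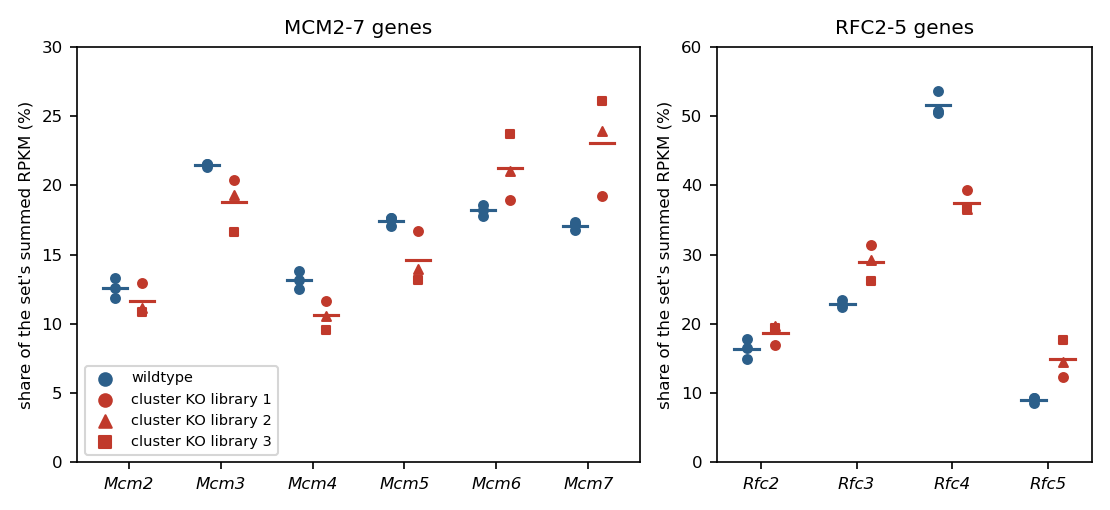
Share of each gene (y axis, percent) in the summed RPKM of the Mcm2 to Mcm7 genes (left) and of the Rfc2 to Rfc5 genes (right), with wildtype libraries in blue, cluster KO libraries in red by library symbol, and group means as lines. Mcm6, Mcm7, Rfc3 and Rfc5 take larger shares in every cluster KO library than in any wildtype library, and Mcm3, Mcm4, Mcm5 and Rfc4 take smaller ones.

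Licensing factors differed from each other. Cdt1, which delivers the Mcm ring to origins, fell from 85.4, 90.4 and 96.1 CPM in the wildtype to 67.0, 59.8 and 75.8 CPM in the cluster KO libraries, with no overlap (log2 fold change -0.42, SE 0.13, edgeR adjusted p = 0.037). Cdc6, the ATPase that works beside it, was at 67.7, 89.4 and 126 CPM against 80.5, 75.4 and 88.6 CPM, with cluster KO libraries on both sides of the wildtype ones (0.21, SE 0.20, edgeR adjusted p = 0.462). The ratio of Cdt1 to Cdc6 per transcript length was 2.09, 1.41 and 1.27 in cluster KO marrow and 2.24, 2.53 and 2.29 in wildtype marrow (exact permutation, two-sided p = 0.1, the smallest possible). This ratio was computed after the values were known. Mcm10, which helps the helicase to start, was at 26.9, 18.6 and 31.1 CPM against 34.0, 38.5 and 34.8 CPM, below wildtype in every cluster KO library (-0.49, SE 0.20, edgeR adjusted p = 0.0892). Cdt1 missed the threshold without cluster KO 2 (edgeR adjusted p = 0.176), wildtype 1 (0.0657), wildtype 2 (0.111) or wildtype 3 (0.122) and with no filter on low counts (0.0694), in a range of 0.00284 to 0.176. It also missed it with replicate numbers as a block (edgeR adjusted p = 0.0957). Mcm10 passed without cluster KO 3 (-0.65, edgeR adjusted p = 0.042, range 0.042 to 0.293).

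The polymerase and fork genes held most of the members that passed, 4 of 13 higher and 4 lower, with a median log2 fold change of 0.01. That is 30.8% each way, beside 15.9% higher and 12.1% lower of all genes tested. Of these 8 only Rfc3 and Rfc5 passed under every alternative. Members of the complex that starts each strand moved in opposite directions. Neither Prim1 nor Pola1 stayed past the threshold once trends over length and GC content were removed. Prim1, the catalytic subunit of primase, rose from 147, 136 and 131 CPM in the wildtype to 173, 182 and 238 CPM in the cluster KO libraries (0.52, SE 0.14, edgeR adjusted p = 0.0209). Pola1, the catalytic subunit of polymerase alpha, fell from 121, 147 and 142 CPM to 115, 93.9 and 92.5 CPM (-0.44, SE 0.13, edgeR adjusted p = 0.0348). Neither gene overlapped between the genotypes. Pola1 is the 1 member on the X chromosome, beside the difference in Xist given above. Their ratio per transcript length, Prim1 over Pola1, was 5.06, 6.55 and 8.69 in cluster KO marrow and 4.10, 3.13 and 3.12 in wildtype marrow (exact permutation, two-sided p = 0.1, the smallest possible). Since Prim1 was above and Pola1 below wildtype in every cluster KO library, this ratio had to separate the genotypes. Its p-value was thus fixed in advance. The ratio was computed after the values were known and adds nothing to those of each gene. Prim1 missed the threshold without cluster KO 2 (edgeR adjusted p = 0.0532), wildtype 2 (0.0824) or wildtype 3 (0.081), in a range of 0.00377 to 0.0824. It also missed it with replicate numbers as a block (edgeR adjusted p = 0.0766) and with length and GC trends removed (0.065). Pola1 did so without cluster KO 2 (edgeR adjusted p = 0.148), cluster KO 3 (0.0833), wildtype 2 (0.14) or wildtype 3 (0.111) and with no filter on low counts (0.052), in a range of 0.00747 to 0.161. It also did so with replicate numbers as a block (edgeR adjusted p = 0.112) and with length and GC trends removed (0.161). Genes of a length like that of Prim1 had a median log2 fold change of 0.40, and those of a length like that of Pola1 one of -0.18.

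Of the extending polymerases, Pold1, the catalytic subunit of polymerase delta, fell, while Pole, that of polymerase epsilon, did not pass. Pold1 was at 45.1, 35.1 and 47.5 CPM in cluster KO marrow and 56.9, 70.8 and 57.3 CPM in wildtype marrow, without overlap (log2 fold change -0.54, SE 0.16, edgeR adjusted p = 0.0339). Pole was at 50.9, 65.7 and 57.7 CPM against 55.8, 59.5 and 50.8 CPM, with the libraries mixed (0.07, SE 0.14, edgeR adjusted p = 0.747). Pold1 missed the threshold without cluster KO 2 (edgeR adjusted p = 0.149), wildtype 1 (0.0565), wildtype 2 (0.145) or wildtype 3 (0.0684), in a range of 0.011 to 0.149. It also missed it with replicate numbers as a block (edgeR adjusted p = 0.103).

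The members that passed under every alternative are protein-coding genes. Rfc3 (ENSMUSG00000033970) spans chr5:151642756-151651242 and Rfc5 (ENSMUSG00000029363) chr5:117378103-117389047, both on the minus strand. Rrm2 (ENSMUSG00000020649) spans chr12:24708241-24714146 and Chaf1b (ENSMUSG00000022945) chr16:93883901-93906115, both on the plus strand (GRCm38).

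The small subunits of replication factor C, the clamp loader, gave the largest rises of the fork genes. Rfc5 was at 153, 186 and 260.2 CPM in cluster KO marrow and 95.6, 97.7 and 80.9 CPM in wildtype marrow (log2 fold change 1.13, SE 0.19, edgeR adjusted p = 0.00345). Rfc3 was at 183, 176 and 181 CPM against 109, 116 and 102 CPM, with nearly equal cluster KO libraries (0.72, SE 0.11, edgeR adjusted p = 0.00277). Rfc2 was at 375, 451 and 509 CPM against 329.7, 309 and 254 CPM (0.58, SE 0.14, edgeR adjusted p = 0.0142). None of these 3 overlapped between genotypes, whereas Rfc4 did, at 222, 215 and 246 CPM against 238, 244 and 233 CPM (-0.07, SE 0.10, edgeR adjusted p = 0.668). In the wildtype libraries Rfc4 took 51.6 ± 1.77% (SD, n = 3) of the summed RPKM of the 4 genes, and in the cluster KO libraries 37.5 ± 1.54%, while Rfc5 took 9.03 ± 0.438% and 14.9 ± 2.70% (exact permutation, two-sided p = 0.1 for each, the smallest possible). The sum itself was 361 ± 19.3 RPKM in wildtype and 475 ± 43.7 RPKM in cluster KO libraries. The smaller share of Rfc4 thus largely restates the rises of Rfc2, Rfc3 and Rfc5 and is no separate result on Rfc4. These shares were computed after the fold changes were known. They rest on the longest coding transcript, 4995 bases for Rfc2 and 1279 for Rfc4, which was not shown to be the form expressed. In CPM Rfc2 was above Rfc4 in every wildtype library. Rfc3 and Rfc5 stayed past the threshold under all 12 alternatives tried, with edgeR or DESeq2 adjusted p up to 0.0276 and 0.0274. Rfc2 missed it without cluster KO 2 (edgeR adjusted p = 0.0582), wildtype 2 (0.0526) or wildtype 3 (0.062), and with replicate numbers as a block (0.0656), in a range of 0.00158 to 0.0656.

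The clamp itself did not pass. Pcna was at 405, 403 and 411 CPM in cluster KO marrow and 445, 425 and 412 CPM in wildtype marrow, so that the cluster KO values lay just below the lowest wildtype one (log2 fold change -0.07, SE 0.09, edgeR adjusted p = 0.578). Dscc1, of the alternative loader that serves sister chromatid cohesion, was at 0.01 (SE 0.14). Lig1, the ligase that seals lagging strand fragments, fell from 169.8, 192 and 205 CPM to 142, 121 and 115 CPM (-0.58, SE 0.13, edgeR adjusted p = 0.00938). Clspn, the mediator that brings the checkpoint kinase Chk1 to stalled forks, fell from 60.2, 64.0 and 71.4 CPM to 54.2, 39.8 and 34.5 CPM (-0.61, SE 0.18, edgeR adjusted p = 0.0304). Both lay below wildtype in every cluster KO library. Lig1 missed the threshold without cluster KO 2 (edgeR adjusted p = 0.0549) and with replicate numbers as a block (0.0516), in a range of 0.000409 to 0.0549. Clspn did so without cluster KO 2 (0.12), cluster KO 3 (0.0742), wildtype 1 (0.0535), wildtype 2 (0.0843) or wildtype 3 (0.112), with edgeR or DESeq2 adjusted p from 0.00269 to 0.12. It also did so with replicate numbers as a block (edgeR adjusted p = 0.0781) and with length and GC trends removed (0.0579).

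Fen1, the flap endonuclease of lagging strand processing, had low counts, at 4.48, 6.19 and 10.035 CPM in cluster KO marrow and 4.07, 4.36 and 4.82 CPM in wildtype marrow (log2 fold change 0.64, SE 0.33, edgeR adjusted p = 0.166). Exons of genes on the other strand cover 84.2% of its exon bases. The antisense gene Gm10143, which takes most of this overlap, had 25, 34 and 21 counts against 50, 57 and 60. HTSeq sets reads that fit both genes aside as ambiguous, so the level of Fen1 is not comparable with those of the other members. Without cluster KO 1 Fen1 passed (0.86, edgeR adjusted p = 0.0473, range 0.0473 to 0.641).

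The nucleotide supply genes had positive fold changes in 4 of 4, of which 2 passed, and a median log2 fold change of 0.33. Of all genes tested 15.9% passed as higher, and a list of 4 is too short to compare with that share. Rrm2, the regulated small subunit of ribonucleotide reductase, rose from 226, 191 and 216 CPM in the wildtype to 321, 394 and 482 CPM in the cluster KO libraries (0.92, SE 0.15, edgeR adjusted p = 0.0033). Rrm1, the large subunit, was at 257, 274 and 394 CPM against 299, 255 and 290.3 CPM, with cluster KO libraries on both sides of the wildtype ones (0.13, SE 0.16, edgeR adjusted p = 0.572). Per transcript length the ratio of Rrm2 to Rrm1 was 2.28, 2.62 and 2.23 in cluster KO marrow and 1.38, 1.36 and 1.35 in wildtype marrow. This ratio, computed after the values were known, had a wildtype spread of only 1.36 ± 0.0112 (SD, n = 3) against 2.37 ± 0.212 (exact permutation, two-sided p = 0.1, the smallest possible). Tk1, the thymidine kinase of the salvage pathway, rose from 117, 120.3 and 97.2 CPM to 146, 144 and 157 CPM (0.42, SE 0.12, edgeR adjusted p = 0.0296). Tyms, the thymidylate synthase of the de novo pathway, was above wildtype in every cluster KO library, at 339, 297 and 329.9 CPM against 290.3, 263 and 262 CPM, but did not pass (0.24, SE 0.10, edgeR adjusted p = 0.107). Rrm2 stayed past the threshold under all 12 alternatives (adjusted p up to 0.027). Tk1 missed it without cluster KO 2 (edgeR adjusted p = 0.0894), cluster KO 3 (0.065), wildtype 1 (0.0596), wildtype 2 (0.0666) or wildtype 3 (0.109), in a range of 0.00828 to 0.122. Tk1 also missed the threshold with replicate numbers as a block (edgeR adjusted p = 0.101) and with length and GC trends removed (0.122).

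The 4 genes of the G1/S switch did not pass. Ccne1 and Ccne2, the E-type cyclins, were at 81.9, 112 and 132 CPM against 89.6, 73.7 and 80.5 CPM, and at 52.4, 63.9 and 81.2 CPM against 53.5, 46.3 and 52.3 CPM. In both, cluster KO library 1 lay among the wildtype libraries and the other two lay above them. The log2 fold changes were 0.41 (SE 0.17, edgeR adjusted p = 0.0981) and 0.38 (SE 0.17, adjusted p = 0.124). Their ratio per transcript length, Ccne2 over Ccne1, was 0.406 ± 0.0229 (SD, n = 3) against 0.416 ± 0.0177 (exact permutation p = 0.6). Cdk2, the kinase they activate, was above wildtype in every cluster KO library at 71.8, 72.2 and 86.3 CPM against 59.7, 64.3 and 68.9 CPM (0.26, SE 0.13, edgeR adjusted p = 0.177). E2f1, the transcription factor of the switch, overlapped at 13.8, 17.3 and 20.02 CPM against 18.4, 14.0 and 13.7 CPM (0.15, SE 0.21, edgeR adjusted p = 0.629). Without cluster KO 1 both cyclins passed, Ccne1 at 0.57 (edgeR adjusted p = 0.00895, range 0.00895 to 0.913) and Ccne2 at 0.51 (0.0246, range 0.0246 to 0.375).

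Of the S-phase chromatin and regulator genes, 2 of 5 rose and 1 fell, where 15.9% of all genes tested rose and 12.1% fell. A list of 5 is too short to compare with those shares. Chaf1b, a subunit of the chromatin assembly factor that places histones behind the fork, had the largest fold change of the 40. It was at 98.7, 158 and 195 CPM in cluster KO marrow and 72.4, 67.3 and 53.9 CPM in wildtype marrow, all higher though widely spread (log2 fold change 1.22, SE 0.23, edgeR adjusted p = 0.00502). Slbp, which binds the stem-loop of replication-dependent histone mRNAs, rose from 592, 507 and 508 CPM to 626, 689 and 750.3 CPM (0.36, SE 0.11, edgeR adjusted p = 0.0329). Uhrf1, which guides maintenance DNA methylation to the fork, fell from 129, 127 and 138 CPM to 117, 91.7 and 73.5 CPM (-0.48, SE 0.16, edgeR adjusted p = 0.0483). Hells, a chromatin remodeller needed for DNA methylation, was at 90.5, 93.4 and 94.7 CPM against 82.8, 102 and 88.2 CPM (0.03, SE 0.12, edgeR adjusted p = 0.883). Usp1, the deubiquitinase that acts on Pcna, was below wildtype in every cluster KO library, at 160.3, 146 and 141 CPM against 179, 173 and 190.4 CPM (-0.28, SE 0.11, edgeR adjusted p = 0.0826), and passed without cluster KO 1 (-0.34, edgeR adjusted p = 0.0314, range 0.0314 to 0.244). Chaf1b stayed past the threshold under all 12 alternatives (adjusted p up to 0.0329). Slbp missed it without cluster KO 2 (edgeR adjusted p = 0.109), cluster KO 3 (0.086), wildtype 2 (0.144) or wildtype 3 (0.112), in a range of 0.0111 to 0.618. Slbp also missed the threshold with replicate numbers as a block (edgeR adjusted p = 0.12) and with length and GC trends removed (0.618). Uhrf1, at the threshold, missed it without cluster KO 2 (edgeR adjusted p = 0.152), cluster KO 3 (0.107), wildtype 1 (0.101), wildtype 2 (0.113) or wildtype 3 (0.143), with DESeq2's size factors (0.0512), library totals (0.0612) or no filter (0.0523), in a range of 0.00407 to 0.152. Uhrf1 did so too with replicate numbers as a block (edgeR adjusted p = 0.0946) and with length and GC trends removed (0.06).

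Between genes, levels per transcript length spread widely. Their order rests on the longest coding transcript, which was not shown to be the form expressed. In the wildtype libraries Pcna (282 ± 11.01 RPKM, SD, n = 3) and Slbp (281 ± 25.6 RPKM) were the highest and did not differ beyond their spread. Rfc4 followed at 186 ± 4.24 RPKM and Gins4 at 111 ± 7.52 RPKM. Rrm2 (96.1 ± 8.11 RPKM), Mcm3 (92.0 ± 1.41 RPKM) and Prim1 (87.1 ± 5.13 RPKM) came next, within their spread of each other. Pole (7.73 ± 0.612 RPKM), Mcm10 (7.35 ± 0.490 RPKM), Gins3 (6.87 ± 1.15 RPKM) and E2f1 (5.58 ± 0.962 RPKM) were the lowest once Fen1 was set aside, and neighbours among them did not differ beyond their spread. In the cluster KO libraries Rrm2 stood at 182 ± 36.7 RPKM, level with Rfc4 at 178 ± 12.6 RPKM.

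Other genes of DNA replication and of G1/S control, 68 that are not among the 40, also went both ways. Of these 15 rose (22.1%) and 14 fell (20.6%), with a median log2 fold change of 0.00. Over all genes tested 15.9% rose and 12.1% fell. Asf1b, a histone chaperone, was at 185, 236 and 272 CPM against 122, 107 and 92.5 CPM (1.11, SE 0.16, edgeR adjusted p = 0.00261). Pold2, the second subunit of polymerase delta, rose by 1.32 (SE 0.26), where Pold1 had fallen. Tfdp1, the dimer partner of E2F factors, rose by 1.14 (SE 0.25) and Rpa2, of the single-strand binding protein, by 0.69 (SE 0.13), whereas its partner subunit Rpa3 fell (-0.76, SE 0.14) on the log2 scale. The origin firing factor Topbp1 fell (-0.79, SE 0.13), as did the nucleotide enzymes Dut (-0.50, SE 0.10) and Dtymk (-0.51, SE 0.10), both of the thymidine nucleotide pathway in which Tk1 had risen.

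Genes of G2/M and mitosis, which mark the later part of the cycle, had 11 of 30 higher (36.7%) and 4 lower (13.3%). Over all genes tested 15.9% were higher and 12.1% lower, so the share lower was near that of all genes. The median log2 fold change of the G2/M genes was 0.23. Ndc80 (0.88, SE 0.17), Cdc20 (0.95, SE 0.19), Ccnb1 (0.99, SE 0.20) and Aurka (1.16, SE 0.26) rose. Anln (-0.56, SE 0.13), the proliferation marker Mki67 (-0.54, SE 0.12), Top2a (-0.45, SE 0.11) and Birc5 (-0.33, SE 0.10) fell. Mki67 was at 263, 260.4 and 204 CPM in cluster KO marrow and 358, 333 and 365 CPM in wildtype marrow. Ccnb1 was at 198, 259.9 and 368 CPM against 152, 139 and 124 CPM, so that these dividing-cell genes moved apart in the same libraries.

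Marker RNA of several marrow cell types differed between genotypes beside these genes, but cell makeup itself was not measured. Over all genes tested 15.9% rose and 12.1% fell. Of the B lineage markers 10 of 15 rose and 0 fell, and their summed level was 3270 to 3403 CPM in the cluster KO and 1547 to 1610 CPM in the wildtype libraries. For Igll1, part of the surrogate light chain of early B cells, levels were 747, 712 and 660.2 CPM against 224, 234 and 252 CPM, whereas Cd24a did not pass (log2 fold change 0.10). Of the erythroid markers 6 of 13 fell and 0 rose (4676 to 5853 against 6057 to 6353 CPM), of which Car1 held the most, at 3578 to 4411 against 4037 to 4738 CPM (-0.12, not past the threshold), followed by Klf1 (0.43, not past it). Of the megakaryocyte markers 3 of 9 tested fell and 1 rose (298 to 303 against 441 to 541 CPM), with Pf4 at -1.86, past the threshold. Of the neutrophil precursor and granule genes 4 of 16 rose (11240 to 21297 against 6629 to 12504 CPM), of the monocyte markers 1 of 9 (171 to 282 against 140 to 147 CPM) and of the T and NK markers 3 of 10 tested (515 to 663 against 430 to 523 CPM), with 0 fallen in each. Their most abundant markers were S100a8 (0.34) and S100a9 (0.41), Ly6c2 (0.49) and Ccr2 (0.79), and Nkg7 (-0.12), none past the threshold, and Trbc1 (0.93), which was. Of the monocyte markers 11.1% rose, a smaller share than the 15.9% over all genes tested. The summed monocyte level was 282 CPM in cluster KO library 1 and 171 and 172 CPM in cluster KO libraries 2 and 3. Mean levels under 1 CPM were found for 1 erythroid, 1 megakaryocyte and 3 T and NK markers. Of the stem and progenitor markers 6 of 11 rose and 1 fell (1643 to 1681 against 1338 to 1373 CPM). Among them Kit was at 309, 286 and 243 CPM against 349, 349.6 and 363 CPM, and Cd48 rose by 0.60. The part of these differences in the replication genes was not tested.

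Cluster KO libraries differed among themselves more than wildtype libraries did. The median coefficient of variation of the 40 genes was 12.8% in cluster KO marrow and 8.19% in wildtype marrow, and 17.8% against 9.68% for the 9 that rose. Library 3 was the highest cluster KO library for 30 of the 40 genes and for 8 of the 9 that rose. Over all genes tested it was the highest for 38.8%, and for 75.6% of those called higher. Library 1, at a share of reads outside genes of 10.1% the nearest to wildtype, was the lowest for 7 of the 9 that rose, as it was for 1964 of all 2487 genes called higher. Without cluster KO 1, 15 members were higher and 7 lower. Without cluster KO 2 the counts were 4 and 0, without cluster KO 3 they were 7 and 5, and without wildtype 1, 2 and 3 they were 8 and 2, 4 and 1, and 4 and 1.

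Fold changes also ran with transcript length. The 9 members that rose had a median longest coding transcript of 1922 bases (1317 to 4995), the 6 that fell one of 3520 bases (2189 to 5346) and the others one of 3031 bases. Over all genes tested, the median log2 fold change was 0.41 for transcripts of 1922 to 2356 bases, -0.42 for those of up to 981 bases and -0.18 for those of 4722 to 6261 bases. Slbp, at 0.36 and 1906 bases, lay near the median of its length class, 0.40, whereas Rfc5 and Chaf1b lay 0.91 and 0.81 above the medians of theirs and Cdt1 0.83 below (difference -0.83). Once trends over length and GC content were removed, Cdc45 (log2 fold change 0.34, edgeR adjusted p = 0.109), Prim1 (0.32, 0.065), Tk1 (0.22, 0.122), Slbp (0.06, 0.618), Pola1 (-0.22, 0.161), Clspn (-0.44, 0.0579) and Uhrf1 (-0.47, 0.06) no longer passed. Mcm3 (-0.34, edgeR adjusted p = 0.0132), Mcm5 (-0.29, 0.0447), Pcna (-0.23, 0.0494) and Ccne2 (0.54, 0.0384) then passed. Rrm2 was at 0.58, Chaf1b at 0.80 and Cdt1 at -0.82 in that fit, each still past the threshold.

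**Figure D4:**
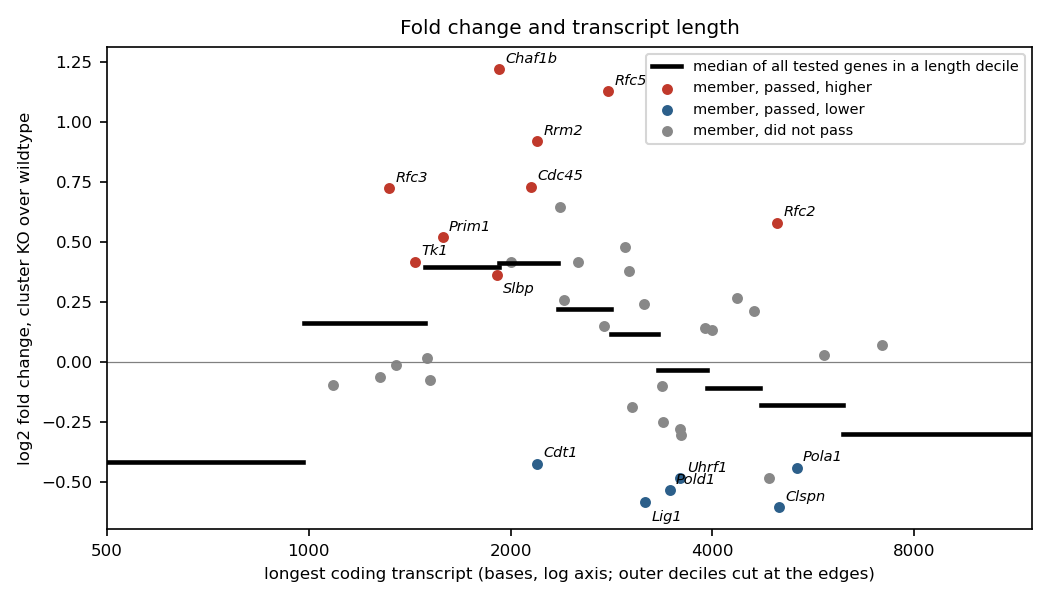
Log2 fold change of cluster KO over wildtype (y axis) against the longest coding transcript in bases (log x axis) for the 40 genes, coloured by call, with the median of all tested genes in each length decile as black bars. The bars lie at -0.42 up to 981 bases, at 0.41 for 1922 to 2356 bases and at -0.30 from 6262 bases, Slbp sits on the bar of its length, and Rfc5, Chaf1b and Rrm2 sit well above theirs.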

How the data were processed

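The deposited table holds raw read counts per Ensembl gene in 6 columns, matched to libraries by title. Per the labels, poly(A) RNA was made into Nextera XT libraries without strand, and the submitters' processing notes name bcl2fastq, TopHat2, HTSeq and mm10. No version, annotation release or counting mode is given in the sources used here. The 5 HTSeq summary rows stayed out of library sizes and tests. Multiple alignments made up 13.4 to 16.8% of the table total per library, reads outside genes 7.29 to 11.1% and ambiguous reads 2.71 to 2.95%.

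Names, positions and transcripts came from GENCODE M21 (GRCm38, the assembly that mm10 names). Counts were analysed with edgeR 4.0.16 in R 4.3.3 (TMM, filterByExpr with a minimum count of 10, robust quasi-likelihood fit, genotype only, Benjamini-Hochberg adjustment at 0.05). Standard errors were derived from the coefficient and its F statistic. The procedure was tested on simulated data. Members and lists were chosen with earlier results of these data known, so no list is independent evidence. All 40 members are named. From the other replication and G2/M lists the 4 smallest p in each direction are named, and from each cell type list up to 2 markers of highest mean CPM, of which 1 is not reported here.

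The 12 alternatives were DESeq2 1.42.0, DESeq2's size factors in edgeR, library totals, no filter, a replicate block, removal of length and GC trends by splines, and leaving out each library. Near-identical copies (95% identity over 200 bases or more) were sought by BLAST: the processed pseudogenes of Cdc6, Pcna, Rfc5, Slbp, Uhrf1 and Usp1 held 0, 91, 23, 4, 1 and 7 counts over all libraries, against 11155 to 78186 for these members. Those of Mcm7 and Rrm2 were not analysed here. Exons of other genes cover 10.7 to 17.4% of the exon bases of Rfc5, Mcm7, Rfc4, Rfc2 and Ccne2, where the unstranded counts are uncertain. A count of 0 allows up to 3 counts, 0.126 to 0.17 CPM per library, for counting error only.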

Additional observations from a re-analysis of the deposited data

How the results depend on the processing

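Of the 40 genes, 39 kept their direction and side of the threshold with DESeq2's size factors and 39 with DESeq2, where Mcm7 passed. Rfc3, Rfc5, Rrm2 and Chaf1b passed under all 12 alternatives. With 1 library left out, members ran from 4 to 15 higher and 0 to 7 lower, all genes from 1258 to 3151 and 742 to 2579, other replication genes from 5 to 22 and 6 to 18, and G2/M genes from 4 to 14 and 1 to 5. Median log2 fold changes then ran from -0.08 to -0.01 (helicase), -0.0673 to 0.12 (polymerase), 0.27 to 0.37 (nucleotide supply), 0.18 to 0.40 (G1/S switch) and -0.0346 to 0.12 (chromatin). Without a filter 3 members were lower. With length and GC trends removed, the medians were -0.11 (polymerase), -0.0561 (G1/S switch) and 0.058 (chromatin), and Dscc1 (-0.13), Ccne1 (-0.0239), Cdk2 (-0.0922) and E2f1 (-0.0882) changed sign. Gins4 changed sign with library totals (0.0006) and no filter (0.0135). With 1 library left out, sign changes occurred in Gins4 (-0.067 to 0.0679), Cdc6 (-0.0524 to 0.39), Pole (-0.0236 to 0.15), Dscc1 (-0.0673 to 0.12), Rrm1 (-0.0839 to 0.24) and Hells (-0.0346 to 0.12). The causes were not tested. Same-numbered libraries did not deviate together (correlations -0.111, 0.015 and -0.076). The labels do not say what the numbers mean, and these correlations cannot exclude a weaker pairing. With the numbers as a replicate block, members were 4 higher and 0 lower, all genes 1331 and 865, other replication genes 7 and 7, and G2/M genes 4 and 0. Fen1 had the fewest counts of the members, 722 over all libraries. No alternative removes the difference in sex-linked transcripts between the genotypes.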
